A study of Mus musculus with 3 samples.

Results

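This report sets macrophages of the mouse stomach muscle that held mRNA of Bmp2, the gene of the secreted growth factor bone morphogenetic protein 2, against macrophages of the same libraries in which no Bmp2 molecule was counted. A macrophage was a cell barcode with at least 3000 UMIs (unique molecular identifiers, 1 per captured mRNA molecule), at most 15% of its UMIs from mitochondrial genes and at least 10 UMIs summed over C1qa, C1qb and C1qc, the subunit genes of complement C1q. Of 5735 barcodes in the 3 libraries, 1418 met this rule. Cells with at least 2 Bmp2 UMIs formed the Bmp2-positive side, 274 cells, and cells with 0 Bmp2 UMIs formed the Bmp2-negative side, 927 cells. The 217 macrophages with exactly 1 Bmp2 UMI belonged to neither side. The cells of both sides were thus selected on their measured Bmp2 UMIs, so Bmp2's own values are a description and were not tested.

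CD45+ cells had been sorted from the stomach's muscle layer in C57bl/6 females, and the libraries carry the label NonDiabetic, replicates 1 to 3. No treatment, transgene or deletion is given in the labels of these libraries, and diabetic samples were not analysed here. The labels do not say whether the replicates were separate animals or pools. A p-value here thus sets a difference between the sides only against its variation over the 3 libraries, and that variation may be technical. Each library gave a Bmp2-positive and a Bmp2-negative sum of counts, so that both sides shared the same dissociation and sequencing.

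In the muscle layer of the gut, resident macrophages lie close to enteric neurons. BMP2 made by these macrophages is known to bind BMP receptors on enteric neurons and to signal there through SMAD proteins, while the neurons supply CSF1, the growth factor macrophages need. Lyve1, the gene of a hyaluronan receptor, marks a class of tissue-resident macrophages often found along blood vessels. Macrophages without it commonly carry more MHC class II, which presents antigen to T cells.

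The Bmp2 gene (ENSMUSG00000027358) lies at chr2:133552159-133562885 on the plus strand of mm10. Bmp2-positive cells numbered 35 of 175 macrophages in replicate 1, 128 of 610 in replicate 2 and 111 of 633 in replicate 3, a mean share of 19.5% ± 1.78 (SD, n = 3). The median Bmp2-positive cell held 4 Bmp2 UMIs in each library, and the highest cell held 28, 36 and 128. Just inside the threshold, 7, 36 and 35 cells had exactly 2 Bmp2 UMIs, and just outside it 23, 96 and 98 cells had 1. Dendritic-type cells, named here from marker genes, served as a cell type with little Bmp2: 1 of 302 had at least 2 Bmp2 UMIs, a share of 0.331% with an exact 95% binomial interval from 0.00838% to 1.83%. Their median depth was 15973.5 UMIs, above the 9368, 9281.5 and 9454 UMIs of the Bmp2-positive macrophages. At least 1 Bmp2 UMI was held by 34.3% of macrophages as the mean over libraries and by 2.65% of dendritic-type cells. Of the other cell types examined, 8.33% of T-cell-type to 24% of mast-type cells held at least 2 Bmp2 UMIs, pooled over libraries. Those cell types are described near the close. Intervals cover counting error only.

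Bmp2-negative macrophages had medians of 10206, 10204.5 and 8797.5 UMIs. The Bmp2-positive sums held 329294, 1293444 and 1092073 UMIs and the Bmp2-negative sums 1349377, 4320755 and 4071156, so that replicate 1 was the shallowest on both sides. The median mitochondrial share was 3.28%, 3.39% and 3.44% in Bmp2-positive cells against 3.05%, 2.66% and 2.55% in Bmp2-negative cells. Its part in the results was not tested. All 12 macrophage markers were detected on each side of each library. No barcode was shared between macrophages of different libraries. Doublets were left in, and the counts of calls without them stand with the other settings at the close.

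The Bmp2-positive side held more Lyve1 cells. Cells with at least 1 Lyve1 UMI made up 51.4%, 74.2% and 84.7% of Bmp2-positive macrophages in replicates 1, 2 and 3, and 34.2%, 46.6% and 46.7% of Bmp2-negative macrophages. The share was higher on the Bmp2-positive side in 3 of 3 libraries, by 27.6 percentage points ± 10.4 (SD, n = 3). An exact two-sided sign-flip permutation test gave p = 0.25, the smallest that 3 pairs allow. With each cell thinned to 3000 UMIs the mean difference was 24.8 points ± 18.3, and with Bmp2-negative cells matched to Bmp2-positive cells in depth it was 28.6 points ± 5.32. Seen the other way, 25%, 27.1% and 26.6% of Lyve1 macrophages were Bmp2-positive, against 16.5%, 12.7% and 6.09% of macrophages without a Lyve1 UMI. Median depths for the latter shares were 6713, 9028.5 and 8653.5 UMIs in Lyve1 cells and 11557, 11065 and 9101 in the others, so the class with the higher share was the shallower one. The 2 classes did not overlap in that share.

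**Figure D1:**
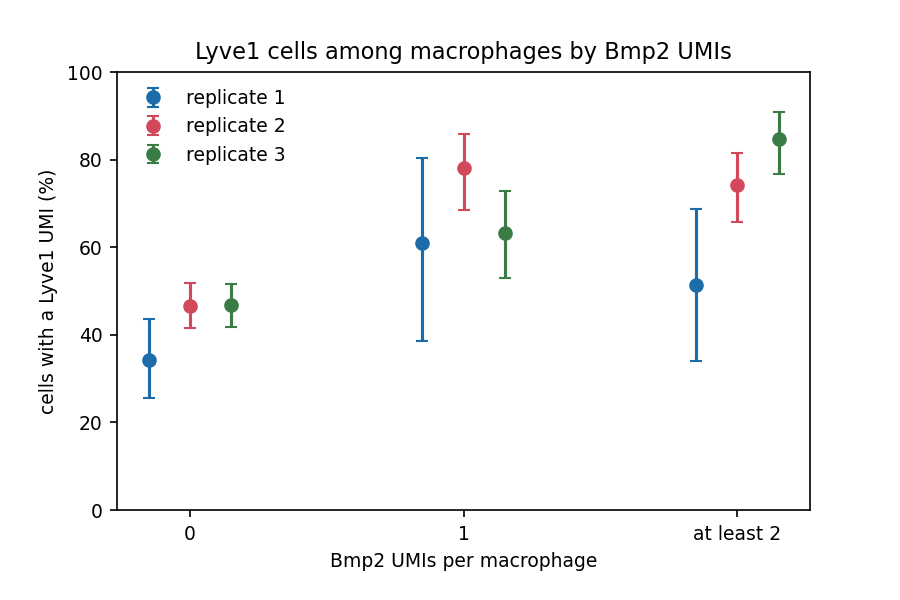
Percentage of macrophages with at least 1 Lyve1 UMI (vertical axis) among cells with 0, 1 or at least 2 Bmp2 UMIs (horizontal axis); points are libraries and bars are exact 95% binomial intervals. In each library the cells with 0 Bmp2 UMIs are lowest, at 34.2% to 46.7%, and the cells with at least 2 lie at 51.4% to 84.7%. Cells with 1 are the highest in replicates 1 and 2, at 14 of 23 and 75 of 96 cells. In replicate 3 they lie between the others, at 62 of 98.

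Across all macrophages, the Bmp2-positive side carried more mRNA of the Lyve1 macrophage programme and less of MHC class II genes, of S100 proteins and of the monocyte receptor Ccr2. Of 8333 genes tested beside those the rule used, 618 passed an adjusted p of 0.05 (7.42%) in edgeR's quasi-likelihood test with Benjamini-Hochberg adjustment and the library as a block. Of these, 328 were higher (3.94%) and 290 lower (3.48%) in Bmp2-positive cells. Without replicate 1, 2 or 3 the number passing was 1348, 151 and 79. Without the library block 0 passed, and with depth-matched sides 191 did. For comparison, 20.4% of genes were higher and 21.4% lower in the Bmp2-positive sum of all 3 libraries. Levels below are CPM, a gene's counts scaled to a fixed total of UMIs per side and library, given for replicates 1, 2 and 3 in that order, and fold changes are log2, Bmp2-positive over Bmp2-negative. In the bulk sums of a side, fewer cells of a type and less RNA per cell cannot be told apart.

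In a list of 22 genes of the Lyve1 macrophage programme, which does not hold Lyve1 itself, 20 rose and none fell, against 3.94% of all genes rising. The median log2 fold change of the list was 0.96, beside 0.00 over all genes tested, and 19 of the 22 genes were higher in all 3 libraries. Without replicate 1 or 2 the count rising was 20 and 15 of 22, and without replicate 3 it was 11 of 21. Folr2, a folate receptor, was at 203, 589.9 and 653 CPM in Bmp2-positive and 69.7, 238 and 291 CPM in Bmp2-negative sums. It was higher on the Bmp2-positive side of each library, by 1.29 ± 0.13 (SE) on the log2 scale (edgeR adjusted p = 0.000678). Replicate 1 had the lowest Folr2 on both sides, and its Bmp2-positive sum lay below the Bmp2-negative sums of replicates 2 and 3, so that the sides separated only within libraries.

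Fcna, which encodes the lectin ficolin A, was at 285, 394 and 755 CPM against 82.3, 144 and 195 CPM. The sides of Fcna did not overlap, and the log2 fold change was 1.72 ± 0.13 (SE) with an edgeR adjusted p of 0.000341. Timd4, a receptor for phosphatidylserine on dying cells, was at 63.8, 77.3 and 139 CPM against 12.6, 35.2 and 50.1 CPM and rose by 1.40 ± 0.18 (SE) (edgeR adjusted p = 0.00264). The complement gene C4b rose by 1.28 ± 0.14 (SE), from 105, 150.2 and 224 CPM to 176, 369 and 679 CPM. The haemoglobin scavenger receptor Cd163 stood at 510.2, 955 and 876 CPM against 157, 536 and 434 CPM, a log2 difference of 1.13 ± 0.16 (SE). Pf4 (platelet factor 4) and Mrc1 (the mannose receptor) passed the test with smaller changes, 0.47 and 0.65. The list's highest fold change was 1.97, for the complement receptor Vsig4, at 3.04, 52.6 and 58.6 CPM against 0.741, 7.41 and 22.1 CPM.

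Genes outside that list also stood among the 12 with the highest fold changes by the naming rule. Ednrb, the endothelin receptor type B, was at 219, 396 and 501 CPM against 98.6, 171 and 148 CPM and rose by 1.40 ± 0.14 (SE) (edgeR adjusted p = 0.000703). Its Bmp2-positive sums were all above its Bmp2-negative sums. Tslp, the cytokine thymic stromal lymphopoietin, was at 45.6, 61.1 and 73.3 CPM against 21.5, 24.1 and 26.5 CPM, again with no overlap, and rose by 1.33 ± 0.16 (SE). The scavenger receptor Colec12 rose by 1.31, the calcium-binding protein gene Rcn3 by 1.25 and Cmah, an enzyme of sialic acid synthesis, by 1.19. Lyve1 itself was at 586, 1312 and 2148 CPM against 219, 622 and 740.3 CPM and rose by 1.33 ± 0.12 (SE). The C-type lectin gene Cd209g, a member of the Lyve1 list, rose by 1.27. The 12 genes were completed by Rsad2, which is described with the genes that differed at equal Lyve1 class.

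**Figure D2:**
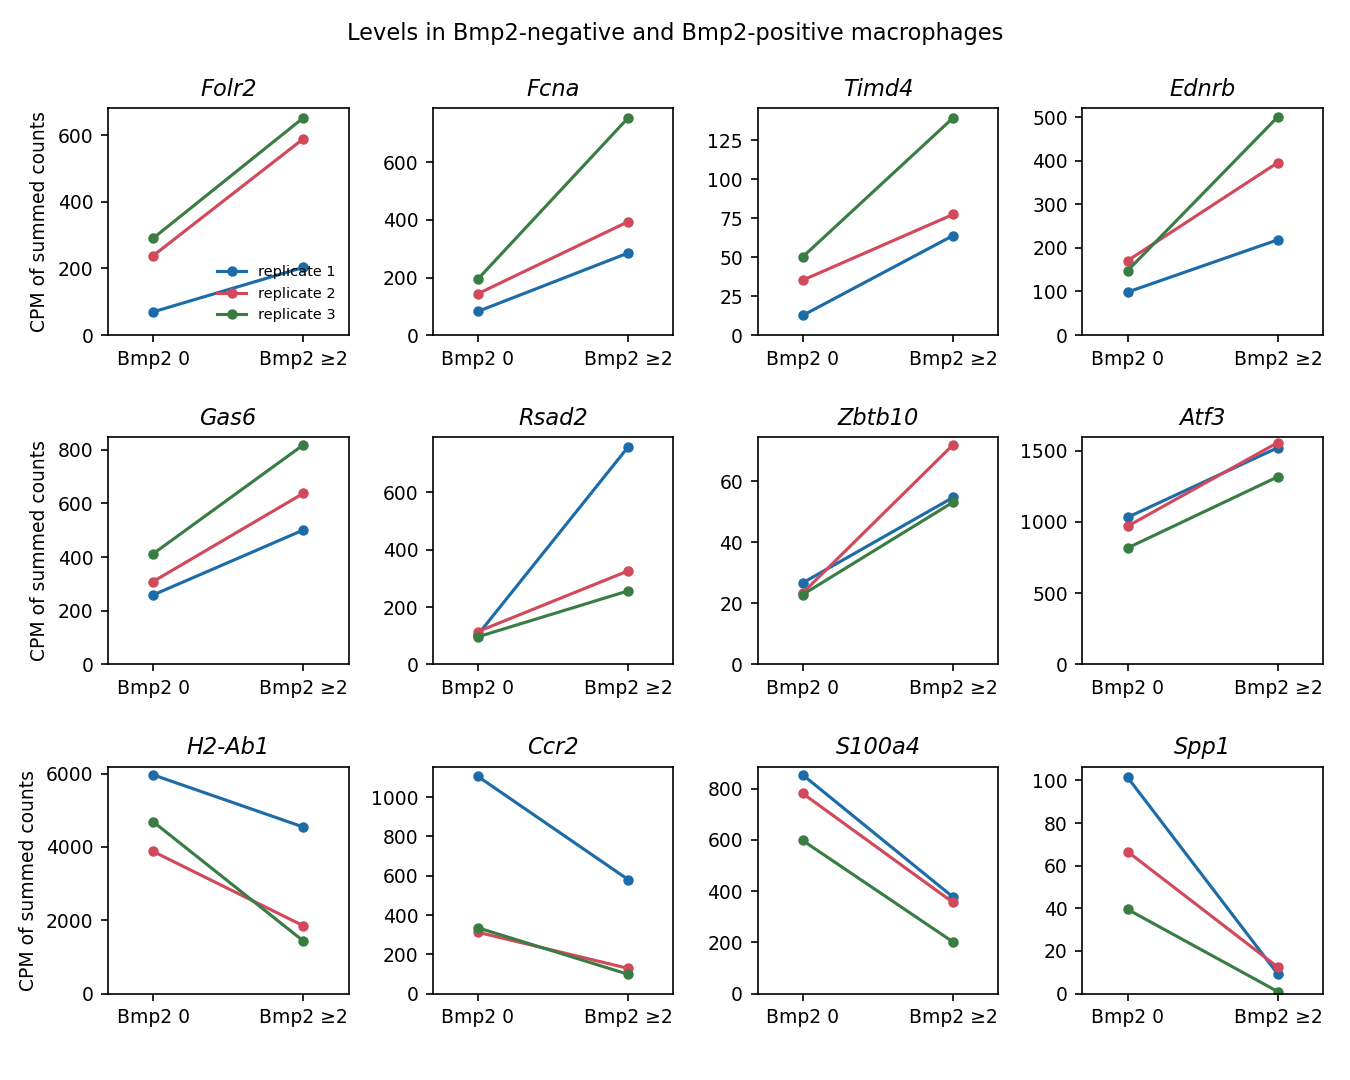
CPM of summed counts (vertical axis, linear from 0) in Bmp2-negative (0 UMIs) and Bmp2-positive (at least 2 UMIs) macrophages, with a line joining both sides of a library. Folr2, Fcna, Timd4, Ednrb and Gas6 rise and H2-Ab1, Ccr2, S100a4 and Spp1 fall in each library, and the Rsad2 value of replicate 1 reaches 759 CPM.

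Scavenger receptor and growth factor genes were called mostly in the higher direction, where 3.94% of all genes tested rose and 3.48% fell. Of 16 tested genes for apoptotic-cell and scavenger receptors and their bridging proteins, 8 rose and 1, Tgm2, fell. In all 3 libraries 10 of the 16 were higher and 5 were lower, beside 20.4% and 21.4% of all genes tested. Mertk, the receptor tyrosine kinase that binds dying cells through GAS6 and protein S, was at 109, 122 and 103 CPM against 66, 53.7 and 67.1 CPM and rose by 0.86 ± 0.15 (SE) (edgeR adjusted p = 0.00906). Its ligand gene Gas6 rose by 1.00 ± 0.10 (SE), from 259, 309 and 412 CPM to 501, 638 and 819 CPM, with no overlap between sides. Of 14 tested growth and trophic factor genes, 6 rose and none fell: Pdgfc, Gas6, Igf1, Hbegf, Pros1 and Grn. Pdgfc, a platelet-derived growth factor, was at 39.5, 68.8 and 70.5 CPM against 16.3, 34.7 and 32.7 CPM and rose by 1.04 ± 0.16 (SE). Igf1, insulin-like growth factor 1, rose by 0.77 ± 0.14 (SE), and Hbegf, an EGF receptor ligand, by 0.72 ± 0.14 (SE). Without replicate 2 the growth factor count was 2 of 13 and without replicate 3 it was 1 of 14, and without replicate 2 the scavenger count was 5 of 16. At equal Lyve1 class, described below, none of the 16 scavenger or 14 growth factor genes passed, with median log2 fold changes of 0.36 and 0.08. Of the rising genes of these lists, Timd4, Cd163, Gas6, Stab1, Cd36 and Igf1 are also members of the Lyve1 programme list. Gas6 and Pros1 stand in both the scavenger and the growth factor list, so these counts are not separate results. Among the rising scavenger genes only Colec12, Mertk and Pros1 lie outside the Lyve1 programme list. Csf1r, the receptor for the CSF1 that neurons supply, was at 835, 1141 and 1160.2 CPM against 723, 856 and 937 CPM and did not pass the test (log2 0.31, edgeR adjusted p = 0.0766).

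The MHC class II and co-stimulation list went the other way: of 13 tested genes none rose and 8 fell, against 3.48% of all genes falling, with a median log2 fold change of -0.9996. H2-Ab1, an MHC class II beta chain, was at 4543, 1848 and 1433 CPM against 5969, 3878 and 4689 CPM, a log2 fold change of -1.06 ± 0.21 (SE) (edgeR adjusted p = 0.0144). Within each library the Bmp2-positive side was lower, but the Bmp2-positive sum of replicate 1 lay above the Bmp2-negative sum of replicate 2. Cd74, the invariant chain, was at 11500.4, 7402 and 5559 CPM against 15619, 14254 and 17047 CPM (log2 -0.9996, edgeR adjusted p = 0.0119). H2-DMb1 and H2-DMa, whose products load peptide onto MHC class II, changed by -1.19 and -1.06. In all 3 libraries 9 of the 13 genes were lower and 1 was higher, beside 21.4% and 20.4% of all genes tested. Without replicate 1 or 2 the counts falling were 9 of 13 and 7 of 12. Without replicate 3 the count was 1 of 13, with a list median of -0.69. Over all genes tested 79 then passed, against 618 as reported. 

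The 12 genes with the lowest fold changes by the naming rule held Ccr2, S100 genes, C-type lectins and Spp1. Ccr2, the chemokine receptor by which monocytes leave the bone marrow, was at 580.0, 128 and 98 CPM against 1106, 312 and 335 CPM and fell in each library (log2 -1.31 ± 0.16 (SE), edgeR adjusted p = 0.00208). Replicate 1 was far above the others on both sides. S100a4, a calcium-binding protein, was at 377, 356 and 201 CPM against 854, 781 and 598 CPM with no overlap (log2 -1.30 ± 0.13 (SE)). S100a11 was at 152, 123 and 84.2 CPM against 296, 354 and 293 CPM, also with no overlap (log2 -1.49 ± 0.17 (SE)). The matrix protein fibronectin, Fn1, was at 239.9, 121 and 45.8 CPM against 642, 359.9 and 174 CPM, a log2 fold change of -1.62 ± 0.14 (SE). The actin-binding peptide gene Tmsb10 and the tetraspanin gene Cd9 changed by -1.24 and -1.48.

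Spp1, which encodes the secreted phosphoprotein osteopontin, had the lowest log2 fold change of the 12, -3.06 ± 0.31 (SE) (edgeR adjusted p = 0.000779). Its Bmp2-positive sums held only 3, 16 and 1 UMIs, and its Bmp2-negative sums 137, 288 and 161. Spp1 UMIs were found in 5.71%, 6.25% and 0.901% of Bmp2-positive cells and in 17.9%, 17.9% and 9.91% of Bmp2-negative cells. Clec4e and Clec4b1, both C-type lectins, fell by 1.91 and 1.47 on the log2 scale. Kcnn4, a calcium-activated potassium channel, the G protein subunit Gngt2 and the ribonuclease Ear2 fell by 1.77, 1.88 and 1.75.

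Further lists held called genes in both directions, beside 3.94% of all genes tested rising and 3.48% falling. Of 28 immediate early and heat shock genes 8 rose, among them Egr1 (log2 0.93 ± 0.14 (SE)), Klf4 (0.74 ± 0.18 (SE)) and Jun (0.56 ± 0.12 (SE)), and 1, Dusp2, fell. Without replicate 1, 2 or 3 the number rising was 17, 4 and 0. Of 20 chemokine genes 6 rose and 2 fell: Ccl7, a monocyte attractant, was at 3301, 4973 and 2607 CPM against 1473, 3746 and 922 CPM (log2 1.02 ± 0.17 (SE)), while Ccl17 and Cxcl3 were lower. Ccl8, Ccl24, Cxcl1, Ccl2 and Pf4 were the other chemokine genes that rose, and without replicate 1, 2 or 3 the number rising was 9, 4 and 0. Ccl24 and Pf4 are also members of the Lyve1 programme list. Of 18 glycolysis and hypoxia genes 6 fell, among them the glucose transporter Slc2a1 (log2 -1.19) and the lactate transporter Slc16a3 (-1.25), and Pfkfb3 rose. Without replicate 1, 2 or 3 the number of glycolysis genes falling was 9, 2 and 3. Of 31 macrophage transcription factors, 6 rose, with Maf at 0.66 and Klf4 at 0.74, and Runx3 and Bhlhe40 fell. Of 24 matrix, adhesion and guidance genes 7 rose, among them Mmp9, Plau and Sema6d, and 6 fell, among them Thbs1, Itgax and Mmp14. The lipid-associated and lysosome list had 3 of 21 genes higher (Ctsl, Ctsb and Abca1) and 4 lower (Spp1, Fabp5, Cd9 and Lgals3).

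In the next lists no more than 3 genes passed, beside 3.94% of all genes tested rising and 3.48% falling. A single called gene in a list of 18 to 29 genes lies near those shares and is not a result about the list. Of 29 NF-kB feedback and inflammatory genes Osm rose and Traf1 fell. Il1b, interleukin-1 beta, was at 1036, 1076 and 416 CPM against 935, 2479 and 658 CPM and did not pass (edgeR adjusted p = 0.128). Of 18 interferon-stimulated genes Rsad2 was the 1 that rose. Of 19 cell cycle genes Mki67 fell (log2 -0.77 ± 0.16 (SE)). Of 14 tissue-protective muscularis macrophage genes Cd163 and Mrc1 rose and Ramp1, a subunit of the receptor for the neuropeptide CGRP, fell (log2 -0.97 ± 0.23 (SE)). Cd163 and Mrc1 are also members of the Lyve1 programme list.

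Most other BMP ligand, inhibitor and target genes were below the filter on low counts, whereas most receptor and SMAD genes were above it. Of 12 ligand genes, 4 including Bmp2 passed the filter, and Bmp4 had 3 UMIs over both sides. Gdf15, a distant relative of the BMPs and a stress cytokine, was at 553, 1188 and 698 CPM against 491, 553 and 292 CPM and rose by 0.88 ± 0.16 (SE) (edgeR adjusted p = 0.0118). Gdf3 was at 6.07, 3.09 and 4.58 CPM against 96.3, 12.3 and 22.1 CPM and fell (log2 -2.67 ± 0.36 (SE)), and Tgfb1 did not pass (log2 0.09 ± 0.12 (SE)). Gdf15 values of both sides overlapped, with replicate 2 the highest, whereas the Gdf3 values did not.

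Of 15 receptor and co-receptor genes, 10 were tested, and over all genes tested 3.94% rose and 3.48% fell. Bmpr2, the type II receptor that binds BMP2, was at 94.1, 108 and 93.4 CPM against 86.7, 68.5 and 69.3 CPM and did not pass (log2 0.45 ± 0.14 (SE), edgeR adjusted p = 0.0744). The type I receptor gene Bmpr1a was at 9.11, 7.73 and 10.1 CPM against 1.48, 5.32 and 1.97 CPM (edgeR adjusted p = 0.126), near the level of a few UMIs per sum. Of the TGF-beta receptors, Tgfbr2 rose by 0.52 ± 0.12 (SE) and Tgfbr1 fell (log2 -0.77 ± 0.16 (SE)). Of 11 tested SMAD and SMAD regulator genes, 1 fell: the inhibitory Smad7, at 36.4, 22.4 and 14.7 CPM against 63.7, 32.9 and 28 CPM (log2 -0.74 ± 0.20 (SE), edgeR adjusted p = 0.0493). Smad1 and Smad5, the SMADs that BMP receptors phosphorylate, had log2 fold changes of 0.21 ± 0.20 (SE) and 0.31 ± 0.22 (SE) and did not pass. Of 4 tested BMP target genes Smad7 was again the 1 that passed, and Id2 and Id3, which BMP signalling commonly induces, had log2 fold changes of -0.11 ± 0.13 (SE) and -0.25 ± 0.20 (SE). Of 12 extracellular inhibitor genes, 11 were below the filter and Bambi did not pass.

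Markers of other cells differed between the sides as well. Of 6 tested smooth muscle markers 3 were higher in Bmp2-positive cells: Myh11, at 0, 22.4 and 45.8 CPM against 2.22, 10.2 and 10.8 CPM, Actg2, at 6.07, 23.2 and 46.7 against 2.96, 15 and 16.5, and Tagln, at 21.3, 37.1 and 88.8 against 3.71, 26.4 and 33.4. The 7 smooth muscle markers summed to 39.5, 148 and 282 CPM on the Bmp2-positive side against 21.5, 89.8 and 117 CPM, and Myh11, Cnn1 and Synpo2 were at 0 in the Bmp2-positive sum of replicate 1. Etv1, listed for interstitial cells of Cajal, was higher (log2 0.95) while Ano1, the defining marker of those cells, was at 0 in the Bmp2-positive sums of replicates 1 and 2. The stomach epithelium gene Tff1 was higher too (log2 1.24 ± 0.28 (SE)), with the 9 epithelial markers summing to 15.2 to 93.4 CPM against 14.1 to 37.8 CPM. None of 4 tested ILC2 (group 2 innate lymphoid cell) markers passed, nor any of 2 tested B or plasma cell markers. The ILC2 markers summed to 225, 460 and 222 CPM against 365, 335 and 127 CPM. Those of B or plasma cells summed to 176, 405 and 223 CPM against 157, 192 and 210 CPM. Single markers were uneven: Il5 was at 40.3 against 0.737 CPM in replicate 3, and Cd79a at 21.6 against 0 CPM in replicate 2. Gata3 went the other way in replicate 2, at 2.32 against 14.1 CPM. The part of other cells' RNA in the results was not tested. Endothelial markers summed to 3.04 to 7.33 CPM on the Bmp2-positive side and 6.71 to 8.15 CPM on the other, with Cldn5, Emcn, Ptprb and Robo4 at 0 in all 6 sums. Macrophages with more than 5 UMIs over any single list of other cells' markers, dendritic cell and monocyte lists aside, were also left out. Then 389 genes passed, with 19 of the 22 Lyve1 programme genes rising and 7 of 11 MHC class II genes falling.

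Because the Bmp2-positive side held more Lyve1 cells, the sides were also compared at equal Lyve1 class, with 12 sums, 1 for each library, side and Lyve1 class, and the library and class as blocks. Far fewer genes then passed: 22 of 8402 (0.262%), of which 12 were higher (0.143%) and 10 lower (0.119%). The number was 21, 35 and 5 without replicate 1, 2 or 3. With depth-matched sides, which held fewer Bmp2-negative cells, it was 1 of 4431 genes tested. Of the 8402 genes as reported, 744 (8.86%) had an unadjusted p under 0.05. None of the 22 Lyve1 programme genes passed, and their median log2 fold change was 0.45. None of 13 MHC class II and co-stimulation genes passed, with a median of -0.49. Folr2 stood at 0.57 ± 0.14 (SE) with an edgeR adjusted p of 0.115, Ednrb at 0.40 ± 0.20 (SE) (0.572) and H2-Ab1 at -0.51 ± 0.13 (SE) (0.129). A class of at least 1 Lyve1 UMI still spans a range of Lyve1 levels. With 3 classes of Lyve1 in place of 2, a setting chosen after seeing the data, 3 genes passed.

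**Figure D3:**
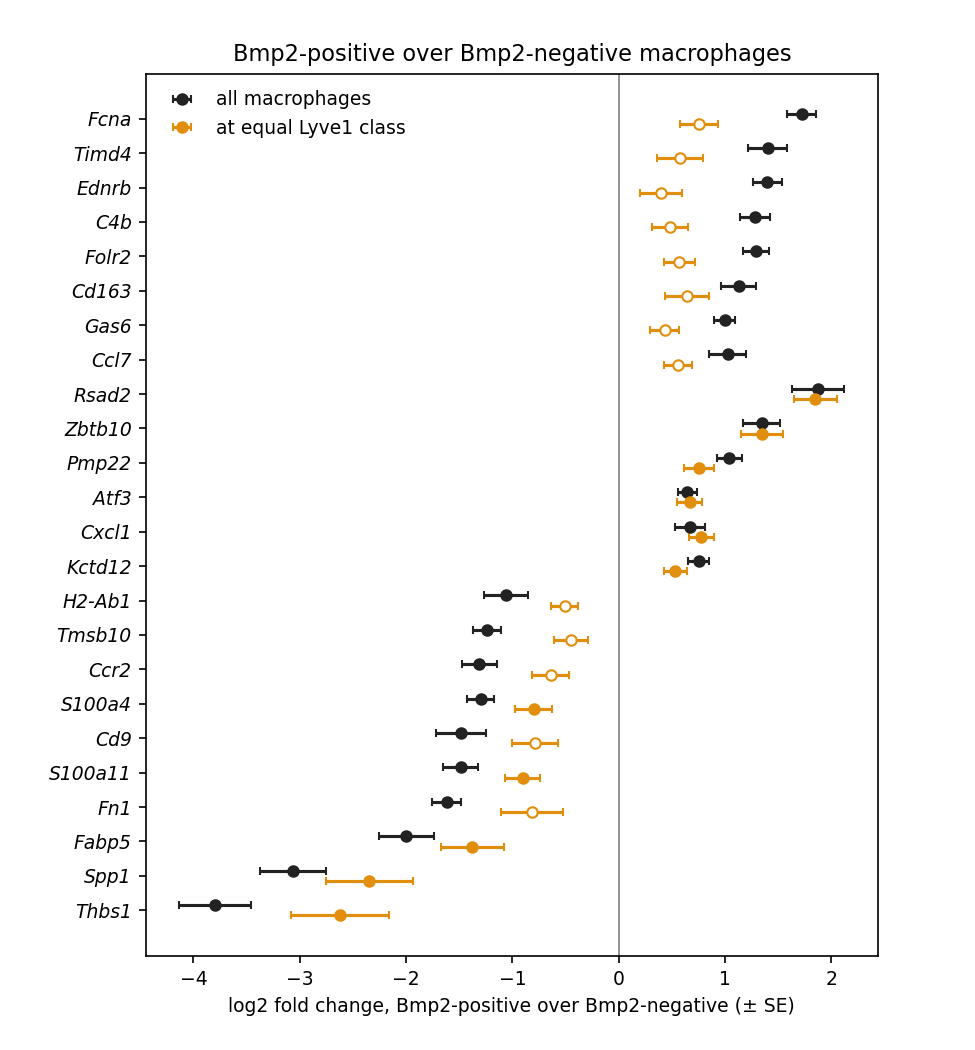
Log2 fold change of Bmp2-positive over Bmp2-negative macrophages (horizontal axis, bars are ± 1 SE) for 24 genes over all macrophages (black) and at equal Lyve1 class (orange); filled points passed an adjusted p of 0.05. Fcna moves from 1.72 to 0.75 and loses its call, while Zbtb10 stays at 1.35.

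Genes that passed at equal Lyve1 class were named after their values were seen, as were the genes of the 2 Lyve1 classes. The 12 higher genes were Rsad2, Zbtb10, Cxcl1, Pmp22, Rasgef1b, Sdc4, Atf3, Ifrd1, Phlda1, Ccl4, Cxcl2 and Kctd12. They hold the neutrophil-attracting chemokines Cxcl1 and Cxcl2, the chemokine Ccl4, the stress-induced transcription factor Atf3 and the antiviral enzyme viperin (Rsad2). Of the 12, 9 had an entry among RefSeq promoters (GRCm38.p6), and the 250 bases before the start were searched on both strands for the letters of an AP-1 site (TGANTCA), a cyclic AMP response element (TGACGTCA), an NF-kB site, an interferon-stimulated response element and a PU.1 site (GAGGAAGT). These letters occur in 6.75%, 1.55%, 4.11%, 2.98% and 2.44% of all 32851 promoters. A forward and a reverse match can share bases, as the AP-1 matches do. The 4 promoters of higher genes with a match are shown because each gene passed at equal class. Whether these genes vary together was not tested. Matches are in capitals. NF-kB letters stand in Cxcl1 (chr5:90890995-90891244, plus strand), Cxcl2 (chr5:90903649-90903898, plus strand) and Rasgef1b (chr5:99252928-99253177, minus strand). AP-1 and interferon-stimulated response element letters stand in Rsad2 (chr12:26456453-26456702, minus strand).
Cxcl1: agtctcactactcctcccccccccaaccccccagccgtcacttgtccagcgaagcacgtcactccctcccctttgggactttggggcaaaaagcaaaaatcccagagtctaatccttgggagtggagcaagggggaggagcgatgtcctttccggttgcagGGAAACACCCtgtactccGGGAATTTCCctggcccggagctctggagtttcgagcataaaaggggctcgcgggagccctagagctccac
Cxcl2: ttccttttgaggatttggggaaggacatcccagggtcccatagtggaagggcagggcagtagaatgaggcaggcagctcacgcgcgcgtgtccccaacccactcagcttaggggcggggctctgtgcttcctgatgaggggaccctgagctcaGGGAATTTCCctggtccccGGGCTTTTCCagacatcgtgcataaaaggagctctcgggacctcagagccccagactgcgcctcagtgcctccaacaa
Rasgef1b: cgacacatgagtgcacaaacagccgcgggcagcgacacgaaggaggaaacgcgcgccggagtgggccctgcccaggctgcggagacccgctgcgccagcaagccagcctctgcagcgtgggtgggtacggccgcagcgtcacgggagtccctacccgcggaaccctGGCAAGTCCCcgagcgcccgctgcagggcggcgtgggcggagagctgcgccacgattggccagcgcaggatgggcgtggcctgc
Rsad2: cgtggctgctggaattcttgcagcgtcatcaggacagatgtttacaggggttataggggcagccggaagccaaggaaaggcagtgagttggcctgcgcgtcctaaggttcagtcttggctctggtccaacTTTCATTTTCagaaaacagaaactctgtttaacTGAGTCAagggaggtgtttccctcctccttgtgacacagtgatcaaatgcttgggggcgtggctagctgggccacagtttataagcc
Cxcl1 holds 2 NF-kB matches, whose first bases lie 89 and 71 bases before the start, and Cxcl2 holds 2, at 97 and 78. Of the 9 higher genes with an entry, 3 held the NF-kB letters, 1 the AP-1 letters and 1 the interferon element. A gene with several promoters was counted if any of them matched, whereas the shares above are per promoter. Cxcl1 and Cxcl2 lie close together on chr5 and both hold GGGAATTTCC, so they may not be separate instances. Of the 10 lower genes 7 had an entry: 2 held the AP-1 letters (AA467197 and S100a11), 1 the interferon element and the PU.1 letters (Spp1), and none the NF-kB letters. A match describes letters and does not show binding.

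Zbtb10, a zinc finger transcription factor gene (ENSMUSG00000069114, chr3:9250602-9285333 on the plus strand), was at 54.7, 71.9 and 53.1 CPM in Bmp2-positive and 26.7, 23.4 and 22.8 CPM in Bmp2-negative sums. The sides did not overlap, and Zbtb10 UMIs were found in 25.7, 32 and 26.1% of Bmp2-positive cells against 13.7, 18.4 and 11.1% of Bmp2-negative cells. After thinning to 3000 UMIs these shares were 11.4, 14.1 and 9.01% against 4.27, 7.77 and 5.19%. In Lyve1 cells it was at 58.8, 69.8 and 50.7 CPM against 34.9, 28 and 28.5 CPM, and in cells without Lyve1 at 51.1, 77.8 and 66.8 against 23.9, 20.4 and 18.6. All 6 pairs thus had the higher value on the Bmp2-positive side. The log2 fold change at equal class was 1.35 ± 0.20 (SE) with an edgeR adjusted p of 0.00158, and 1.39 with 3 Lyve1 classes (edgeR adjusted p = 0.00518). Without replicate 2 it did not pass (edgeR adjusted p = 0.105).

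Cxcl1 was at 1452, 1946 and 824 CPM against 707, 1544 and 516 CPM over all macrophages and higher in each library. At equal class its log2 fold change was 0.78 ± 0.12 (SE) (edgeR adjusted p = 0.00238). Cxcl2, at 8552, 15118 and 5175 against 4882, 12434 and 4295 CPM, and Ccl4, at 7771, 8923 and 3105 against 3981, 6706 and 3163 CPM, did not pass over all macrophages and did at equal class, by 0.62 and 0.64. Ccl4 of replicate 3 was slightly lower on the Bmp2-positive side of the undivided sums and higher in both of its Lyve1 classes. With 3 Lyve1 classes none of these chemokines passed (edgeR adjusted p = 0.909, 0.876 and 0.782), and the log2 fold change of Cxcl1 was 0.25.

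Atf3 was at 1521, 1557 and 1317 CPM against 1032, 969.5 and 817 CPM, with no overlap, and rose by 0.67 ± 0.12 (SE) at equal class (edgeR adjusted p = 0.00997). Pmp22, which encodes a membrane protein best known from myelin, was at 443, 650.2 and 553 CPM against 226, 352 and 230.4 CPM and rose by 0.75 ± 0.14 (SE). Sdc4, a heparan sulfate proteoglycan, rose by 0.71, Rasgef1b by 0.72, Ifrd1 by 0.67, Phlda1 by 0.66 and Kctd12 by 0.53. Without replicate 3, Atf3 and Pmp22 did not pass (edgeR adjusted p = 0.199 and 0.275).

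Rsad2 (ENSMUSG00000020641, chr12:26442746-26456452 on the minus strand) had the highest log2 fold change of the 12, 1.85 ± 0.20 (SE) at equal class (edgeR adjusted p = 2.66e-05). Its Bmp2-positive sums were at 759, 326 and 256 CPM and its Bmp2-negative sums at 104, 114 and 96 CPM. Replicate 1 was the highest on the Bmp2-positive side, and the Bmp2-negative sums lay close together. The UMIs were concentrated in few cells. In replicate 1 a single Bmp2-positive cell held 134 of 250 Rsad2 UMIs, and in replicates 2 and 3 the highest cell held 84 of 422 and 64 of 280. Rsad2 UMIs were found in 22.9, 24.2 and 19.8% of Bmp2-positive and 18.8, 20.5 and 15.3% of Bmp2-negative cells, a smaller difference than that of the sums. With the highest cell of each sum left out, chosen after seeing the data, the log2 fold change at equal class was 1.02 (edgeR adjusted p = 0.00699). In cells without Lyve1 it went from 2.25 to 0.13, with an edgeR adjusted p of 0.965. Of the other interferon-stimulated genes, Isg15 was at 176, 187 and 99.8 CPM against 129.7, 222 and 154 CPM and Ifit1 at 54.7, 86.6 and 58.6 against 55.6, 85.6 and 28.2 CPM, and neither passed.

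The 10 lower genes at equal class included the S100 genes S100a4, S100a10 and S100a11, Spp1, the fatty acid binding protein gene Fabp5, the matrix glycoprotein gene Thbs1, the pyrin gene Mefv, Chil3, Ccl17 and AA467197. S100a11 fell by 0.90 on the log2 scale (edgeR adjusted p = 0.0111) and S100a4 by 0.80 (0.049). S100a4 was at 375, 320.4 and 552 CPM in Bmp2-positive against 963, 1066 and 818 CPM in Bmp2-negative cells without Lyve1, with no overlap. In Lyve1 cells it was at 379, 368 and 139 against 533, 333 and 308 CPM, and replicate 2 went the other way. Spp1 had a log2 fold change of -2.35 ± 0.41 (SE), Thbs1 of -2.62 ± 0.46 (SE) and Fabp5 of -1.38 ± 0.30 (SE). Ccl17, a chemokine of dendritic cells, had 0, 1 and 0 UMIs in the Bmp2-positive and 40, 218 and 51 UMIs in the Bmp2-negative sums, of which 37, 64 and 46 came from 1 cell each. Chil3 had no UMI in any Bmp2-positive sum and 92, 26 and 33 in the Bmp2-negative sums. Leaving out replicate 3 ended the calls of S100a4, S100a11, Spp1, Fabp5, Thbs1 and Mefv at equal class (edgeR adjusted p = 0.37, 0.299, 0.206, 0.421, 0.0875 and 0.0728).

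Within the Lyve1 cells alone, 207 Bmp2-positive and 418 Bmp2-negative, 2 of 7642 genes passed (0.0262%), Fcna and Rsad2, both higher. Fcna was at 614, 531 and 889 CPM against 294, 359 and 441 CPM. The sides did not overlap, and Fcna rose by 0.86 ± 0.14 (SE) (edgeR adjusted p = 0.0359). Fcna UMIs were nearly confined to Lyve1 cells: cells without Lyve1 gave 0, 1 and 1 UMIs on the Bmp2-positive and 10, 18 and 18 on the Bmp2-negative side. At the unadjusted p of 0.05, 464 genes passed (6.07%), and DESeq2 called 1 gene. Leaving out replicate 1, 2 or 3 gave 18, 48 and 0 genes. The median log2 fold change of the 22 Lyve1 programme genes was 0.34, and of 11 MHC class II genes -0.57.

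Within the cells without Lyve1, 67 Bmp2-positive and 509 Bmp2-negative, 14 of 6386 genes passed (0.219%), 8 higher (0.125%) and 6 lower (0.094%). Leaving out replicate 1, 2 or 3 gave 16, 46 and 21 genes, and 559 (8.75%) had an unadjusted p under 0.05. The 8 higher genes were Rsad2, Pmp22, Gdf15, Cd83, Egr1, Cited2, Ppp1r15a and Zbtb10. Gdf15 was higher by 1.31 ± 0.20 (SE) (edgeR adjusted p = 0.0208), while in Lyve1 cells its log2 fold change was 0.22 ± 0.23 (SE). The transcription factor gene Egr1 rose by 1.15, the dendritic and macrophage surface gene Cd83 by 1.12 and the stress phosphatase subunit gene Ppp1r15a by 1.01. The proliferation marker Mki67 (log2 -2.93), the protease gene Napsa (-3.18), Plec (-1.33), AA467197 (-3.44), Thbs1 (-3.45) and Spp1 (-2.65) fell. These sums rested on 17, 33 and 17 Bmp2-positive cells, and with Bmp2-negative cells matched to them in depth and number no gene passed. Matching kept 17, 33 and 17 of 77, 206 and 226 Bmp2-negative cells, and only 2614 genes were tested. The parts of depth and of cell number in that result were not tested.

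No gene's difference between the sides was itself shown to differ between Lyve1 and other macrophages: 0 of 8402 passed (0%), 462 had an unadjusted p under 0.05 (5.5%), and DESeq2 called 0. On simulated data this test recovered 6% of genes changed by a log2 of 1 and 49% of those changed by 2. The test over all macrophages recovered 73% and 91%. The count of 0 thus does not show that the differences were alike in both classes. Leaving out replicate 1, 2 or 3 gave 8, 41 and 0 genes. For Gdf15 the difference of log2 fold changes, Lyve1 cells minus other cells, was -1.11 ± 0.34 (SE), with an edgeR adjusted p of 0.574.

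Levels by the number of Bmp2 UMIs are a description of the same cells. Lyve1 was at 219, 622 and 740.3 CPM in cells with 0 Bmp2 UMIs, 526, 1528 and 1502 CPM with 1, 412, 1561 and 2606 CPM with 2, and 627, 1238 and 1959 CPM with at least 3. In each library the Lyve1 level of cells with 1 Bmp2 UMI, which belonged to neither side, was above that of cells with 0. S100a4 was at 565, 407 and 288 CPM in cells with 1 Bmp2 UMI, against 854, 781 and 598 CPM with 0 and 379, 311 and 248.5 CPM with at least 3. Zbtb10 was at 28.7, 31.7 and 35.7 CPM with 1 Bmp2 UMI, close to the 26.7, 23.4 and 22.8 CPM of cells with 0, and at 63.8, 75.2 and 58.2 CPM with at least 3. Beyond 1 Bmp2 UMI, Lyve1 did not rise steadily in any library. Some called genes kept 1 direction in their means over libraries. With 0, 1, 2 and at least 3 Bmp2 UMIs, mean Cd163 was 376, 626, 712 and 801 CPM. Mean H2-DMa was 464, 307, 278 and 220 CPM. Other called genes, such as Egr1 and Fn1, were not graded. Egr1 was at a mean of 265 CPM with 0 Bmp2 UMIs, 946 ± 434 (SD, n = 3) with 2 and 338 with at least 3. Fn1 was at a mean of 392 CPM with 0 Bmp2 UMIs, 480 ± 568 (SD, n = 3) with 2 and 52.4 with at least 3. Replicate 1 had 7 cells with exactly 2 Bmp2 UMIs, so its values there rest on few UMIs.

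**Figure D4:**
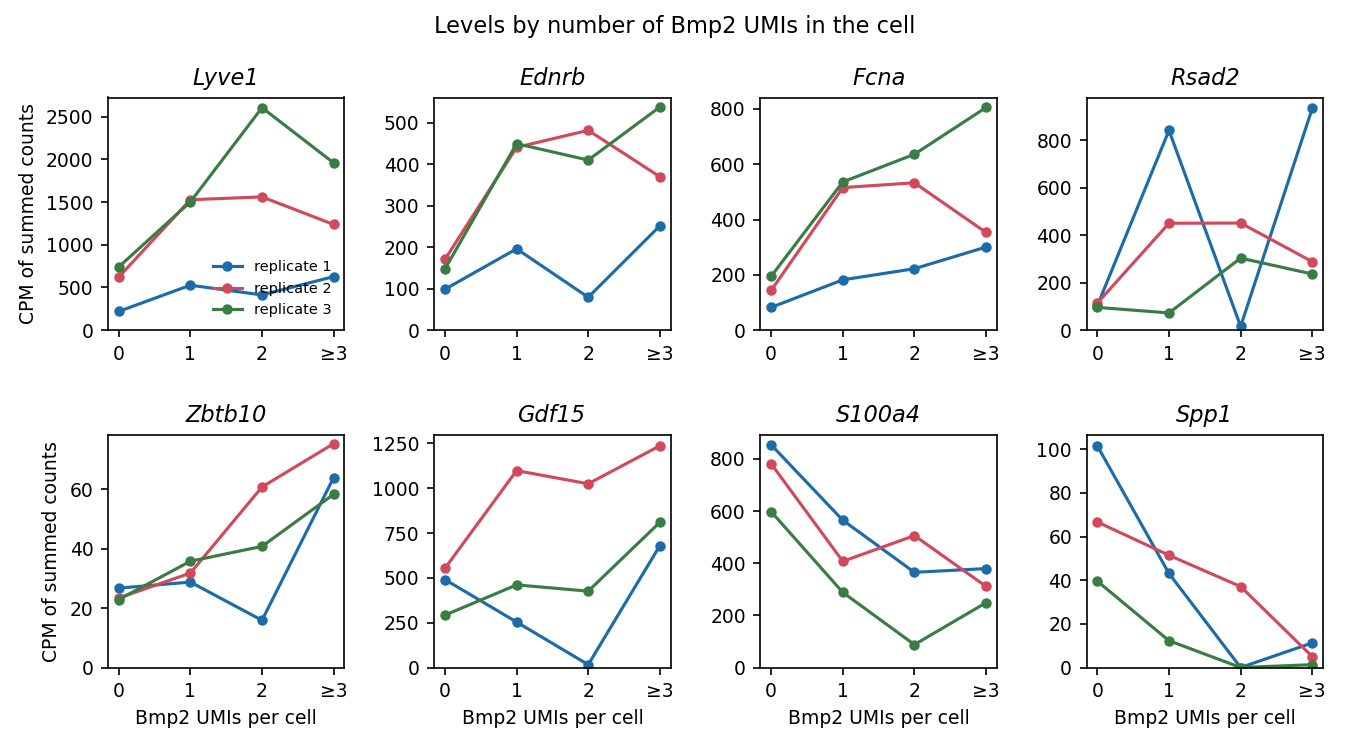
CPM of summed counts (vertical axis, linear from 0) by the number of Bmp2 UMIs in the cell (horizontal axis) for 8 genes, 1 line per library. Lyve1 is lowest in cells with 0 Bmp2 UMIs in each library, and Zbtb10 is highest in cells with at least 3, at 58.2 to 75.2 CPM.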

How the data were processed

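Single-cell 3' RNA libraries of CD45+ cells were analysed. The authors deposited UMI counts per gene and barcode, not normalised, made with Cell Ranger 3.1 and mm10 per the submitters' processing notes; the file headers name 3.0.0 (replicate 1) or 3.1.0 (the other replicates). Total counts were 6777422, 13336484 and 11017170 UMIs. No source used here gives the annotation release.

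Counts were summed per library, side and, where stated, Lyve1 class (at least 1 or 0 UMIs). Genes passing filterByExpr were tested with edgeR 4.0.16 (TMM, quasi-likelihood test, library block, Benjamini-Hochberg adjustment, threshold 0.05) in R 4.3.3; sums of both sides come from the same library, which is the pairing. The test was checked on simulated data. Bmp2, the C1q genes, mitochondrial genes and, except over all macrophages, Lyve1 were left out of counts of calls. DESeq2 1.42.0 and other settings were alternatives. Thinning drew 3000 UMIs per cell. Gene positions come from the mm10 reference annotation.

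Named genes were the 12 highest and 12 lowest fold changes among called genes with at least 50 CPM on a side the same direction in 3 libraries and the same call with depth-matched sides, the tested BMP list members, and up to 3 per other list and direction. The members, lists and rules were chosen with earlier results of these data known.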

Additional observations from a re-analysis of the deposited data

Results flagged for a closer look

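Bmp2 UMIs also appeared in cells outside the macrophages, which the comparison did not use, above the level of dendritic-type cells (0.331% with at least 2 UMIs). All shares here are pooled over libraries, with exact 95% binomial intervals, and the cell types were named from marker genes. At least 2 Bmp2 UMIs were held by 9.43% of ILC2-type cells (28 of 297, interval 6.36% to 13.3%, median depth 7109 UMIs). The share was 8.33% in T-cell-type cells (8 of 96, 3.67% to 15.8%, 7432.5 UMIs). It was 24% in mast-type cells (6 of 25, 9.36% to 45.1%, 5445 UMIs) and 14.5% in fibroblast-type cells (9 of 62, 6.86% to 25.8%, 13309 UMIs). Thinned to 3000 UMIs per cell, the shares were 3.7%, 2.08%, 4% and 1.61% in that order (11 of 297, 2 of 96, 1 of 25 and 1 of 62), against 0.331% in dendritic-type cells (interval 0.00838% to 1.83%). After thinning only the ILC2-type interval, 1.86% to 6.53%, lay above the dendritic-type one. Without replicate 3 the unthinned share was 5.33% in T-cell-type cells (4 of 75) and 0 of 191 in dendritic-type cells, which allows up to 1.57%. Both settings were chosen after seeing the data. The source of these UMIs was not tested.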

How the results depend on the processing

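Counts of genes passing are given below in the order all macrophages, Lyve1 cells, cells without Lyve1, equal Lyve1 class and the difference between classes; in that order they were 618, 2, 14, 22 and 0 as reported. With no replicate block, which drops the pairing of both sides by library, they were 0, 0, 0, 2 and 0. DESeq2 gave 237, 1, 21, 48 and 0. No filter on low counts gave 1034, 49, 108, 131 and 37, and RLE scaling gave 8 in cells without Lyve1. Leaving out 1 replicate gave 79 to 1348, 0 to 48, 16 to 46, 5 to 35 and 0 to 41. Bmp2-positive at 1 UMI gave 985, 9, 45, 28 and 1, and at 3 UMIs 396, 2, 1, 5 and 0. Depth-matched sides, with fewer Bmp2-negative cells and fewer genes tested, gave 191, 15, 0, 1 and 0. Thinning to 3000 UMIs after choosing sides gave 247, 5, 48, 24 and 0. Thinning before choosing them gave 204, 11, 1, 7 and 3. In that setting Bmp2-positive meant at least 1 thinned Bmp2 UMI, and the Lyve1 classes were also taken from thinned counts. A minimum of 5000 UMIs gave 7 in cells without Lyve1 and doublet removal 31. Removing cells with other cells' markers gave 389, 2, 7, 26 and 0. Of the settings added after seeing the data, leaving out the highest cell of each gene gave 722, 21, 41, 82 and 7, and 3 Lyve1 classes gave 3 at equal class. The remaining settings stayed within 1.5 times the reported counts. The cause of these shifts was not tested.

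The share of Bmp2-positive macrophages was 34.3% at 1 UMI, 14.4% at 3 UMIs and 9.02% after thinning. Of the named genes tested here, the 92 that passed as reported kept their sign in every setting run, while 12 of the 22 that did not pass changed sign in at least 1 setting without a call on either side. For the genes named by rule over all macrophages, 1337 of the gene and setting pairs kept their side of the threshold, 235 lost the call and 8 gained it. At equal class the genes that passed kept the call in 234 pairs and lost it in 148. The shallowest Bmp2-positive sums were the Lyve1 cells of replicate 1 (18 cells, 153096 UMIs) and the cells without Lyve1 of replicates 3 and 1 (17 cells each, 164764 and 176198 UMIs).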
